A study of Arabidopsis thaliana with 12 samples.

Results

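The chloroplast genome of Arabidopsis is represented on the ATH1 array by probe sets for most of its protein-coding genes. All probe sets that the platform annotation pairs with a single gene ID whose TAIR10.1 locus tag begins with ArthCp were taken, which gave 69 probe sets for 69 genes among the 22746 probe sets that are not array controls. They cover 69 of the 78 plastid gene symbols in the TAIR10.1 gene table, and 8 further plastid probe sets that pair with more than 1 gene ID are described at the end. By function, 15 members encode photosystem II proteins, 10 the NDH complex, 8 the small and 7 the large ribosomal subunit, 7 photosystem I and its assembly factors, 7 the cytochrome b6f complex and a cytochrome maturation factor, 6 the ATP synthase, 4 the RNA polymerase, and 5 other proteins. All 69 passed the filter on low values, so none drops out of the counts below.

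RNA came from whole light-grown seedlings, 7 days old, of 2 gibberellin (GA) mutants, in 4 groups of 3 arrays that the submitters describe as independent biological replicates. The gid1 groups carried the gid1a-1 gid1b-1 gid1c-2 alleles, which by the label make a GA receptor triple mutant, and were given either 100 µM of the gibberellin GA3 or a mock treatment for 1 h. The ga-1 groups carried the SALK_109115 insertion in a GA biosynthesis gene and were treated in the same ways. No group was wild type. The labels were first checked on genes outside the plastid. The receptor gene GID1A had signals of 55.5, 60.9 and 64.0 in gid1 with GA3, 68.9, 70.9 and 42.4 in mock-treated gid1, 209, 194 and 235 in ga-1 with GA3 and 686, 639.5 and 710.1 in mock-treated ga-1 (limma adjusted p = 2.4e-07 between the mock-treated mutants). GID1B had 112, 93.1 and 78.3 in gid1 with GA3, 47.5, 74.2 and 66.9 in mock-treated gid1, 87.6, 73.3 and 79.0 in ga-1 with GA3 and 458, 540.5 and 544 in mock-treated ga-1 (adjusted p = 3.6e-06 between the mock-treated mutants). GID1C was not lower in gid1, with 140.2, 117 and 185 in gid1 with GA3, 171, 107 and 97.6 in mock-treated gid1, 78.4, 115 and 91.0 in ga-1 with GA3 and 124, 99.4 and 79.1 in mock-treated ga-1 (log2 difference 0.29, adjusted p = 0.99 between the mock-treated mutants). Where its probe set lies relative to the gid1c-2 mutation was not examined, so the loss of GID1C rests on the label. For the GA3 treatment of ga-1, XERICO, a RING-finger gene that the DELLA repressors of GA signalling switch on, had signals of 528, 342 and 438 in ga-1 with GA3 against 1987, 1879 and 1964 in mock-treated ga-1 (limma adjusted p = 2e-07).

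Chloroplasts keep a small genome that encodes core subunits of both photosystems, the cytochrome b6f complex, the ATP synthase, the NAD(P)H dehydrogenase-like (NDH) complex, the large subunit of Rubisco and part of a bacterial-type ribosome. Many of these genes are transcribed together in long units and then cut and processed, by a plastid-encoded polymerase (the rpo genes, with sigma factors from the nucleus) and by a polymerase encoded in the nucleus. Most partner subunits of the same complexes are nuclear-encoded. Plastid transcripts mostly lack stable poly(A) tails, and the amplification kit named in the labels' protocols primes from poly(A), so the signals here are not a measure of the whole plastid transcript pool, and what this contributes to the results was not tested. In whole seedlings, fewer plastids or green cells and less RNA per cell cannot be told apart.

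No chloroplast-encoded gene passed an adjusted p of 0.05 (limma, Benjamini-Hochberg over 15922 probe sets) in any of the 5 comparisons. After GA3 in ga-1, 0 of 69 members were called, where 0.81% of all tested probe sets were, and 3 had an unadjusted p under 0.05, against 7.83% of all. After GA3 in gid1, 0 were called, against a background of 0% of all probe sets, and 2 had an unadjusted p under 0.05, against 5.26% of all. In the difference between these responses 0 were called, against 0.22% of all, with 3 under the unadjusted 0.05, where 6.53% of all were. Between mock-treated gid1 and mock-treated ga-1 0 were called, against 0.0188%, with 4 under the unadjusted 0.05, where 4.58% of all were. Between gid1 and ga-1 with GA3, 0 were called, against 1.26%, and 0 members reached an unadjusted p of 0.05, against 10.8% of all probe sets. The members varied more between replicate arrays than most probe sets did, they varied together, and many of the intervals on their differences were wide.

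**Figure D1:**
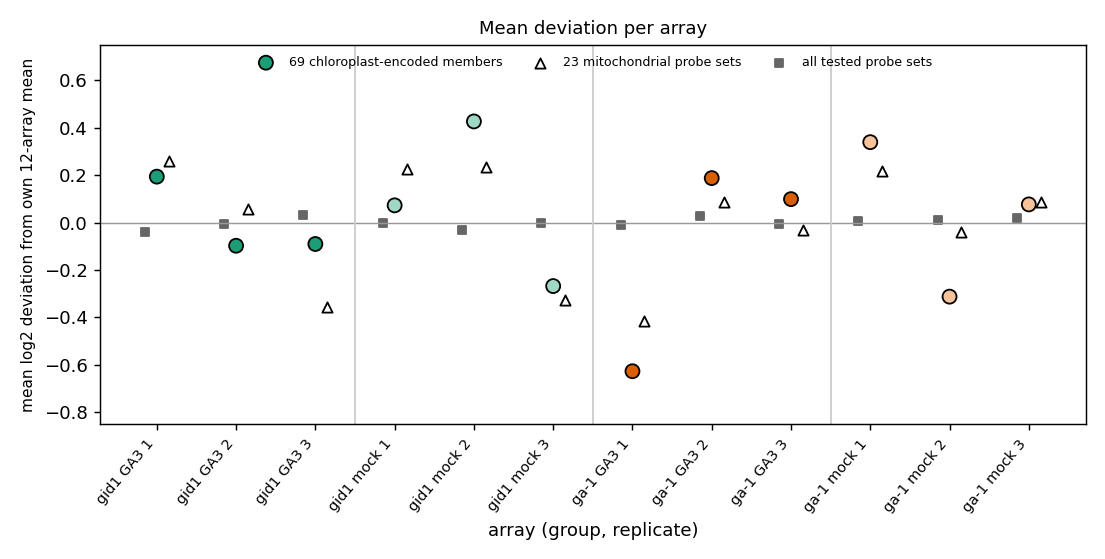
Mean log2 deviation of the 69 chloroplast-encoded members from their own means over 12 arrays, 1 point per array, with the mean of all tested probe sets and of the mitochondrial probe sets for the same arrays; groups run from gid1 with GA3 at the left to mock-treated ga-1 at the right. The members lie between -0.63 on ga-1 GA3 replicate 1 and 0.43 on gid1 mock replicate 2, while the mean of all tested probe sets stays between -0.04 and 0.03.

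The joint movement is clearest in the mean deviation of the members on each array, taken on the log2 scale from each member's own mean over the 12 arrays. It was 0.19, -0.10 and -0.09 in gid1 with GA3 (replicates 1, 2 and 3, an order kept for all values below), 0.07, 0.43 and -0.27 in mock-treated gid1, -0.63, 0.19 and 0.10 in ga-1 with GA3, and 0.34, -0.31 and 0.08 in mock-treated ga-1. The 4 groups overlap: their means were 0.0019 ± 0.17 in gid1 with GA3, 0.08 ± 0.35 in mock-treated gid1, -0.11 ± 0.45 in ga-1 with GA3 and 0.03 ± 0.33 in mock-treated ga-1 (SD, n = 3 each). Over all 15922 tested probe sets the same quantity stayed between -0.04 and 0.03.

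Replicates of the same group stood further apart in the members than the groups did. Within mock-treated gid1, replicate 2 exceeded replicate 3 in 69 of 69 members, against 46.1% of all tested probe sets, with a median log2 difference of 0.63. In mock-treated ga-1, replicate 1 exceeded replicate 2 in 63 of 69, against 50.6% of all, and in ga-1 with GA3, replicate 1 lay below replicate 3 in 61 of 69, against 50.5% of all. Replicate 1 of ga-1 with GA3 held the lowest value of 41 members. The highest values gathered on mock ga-1 replicate 1 (26 members) and mock gid1 replicate 2 (19 members). A single component took up 62% of the members' variance over the 12 arrays, against 19.2% for all tested probe sets, and 68 of 69 members loaded on it with the same sign.

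**Figure D2:**
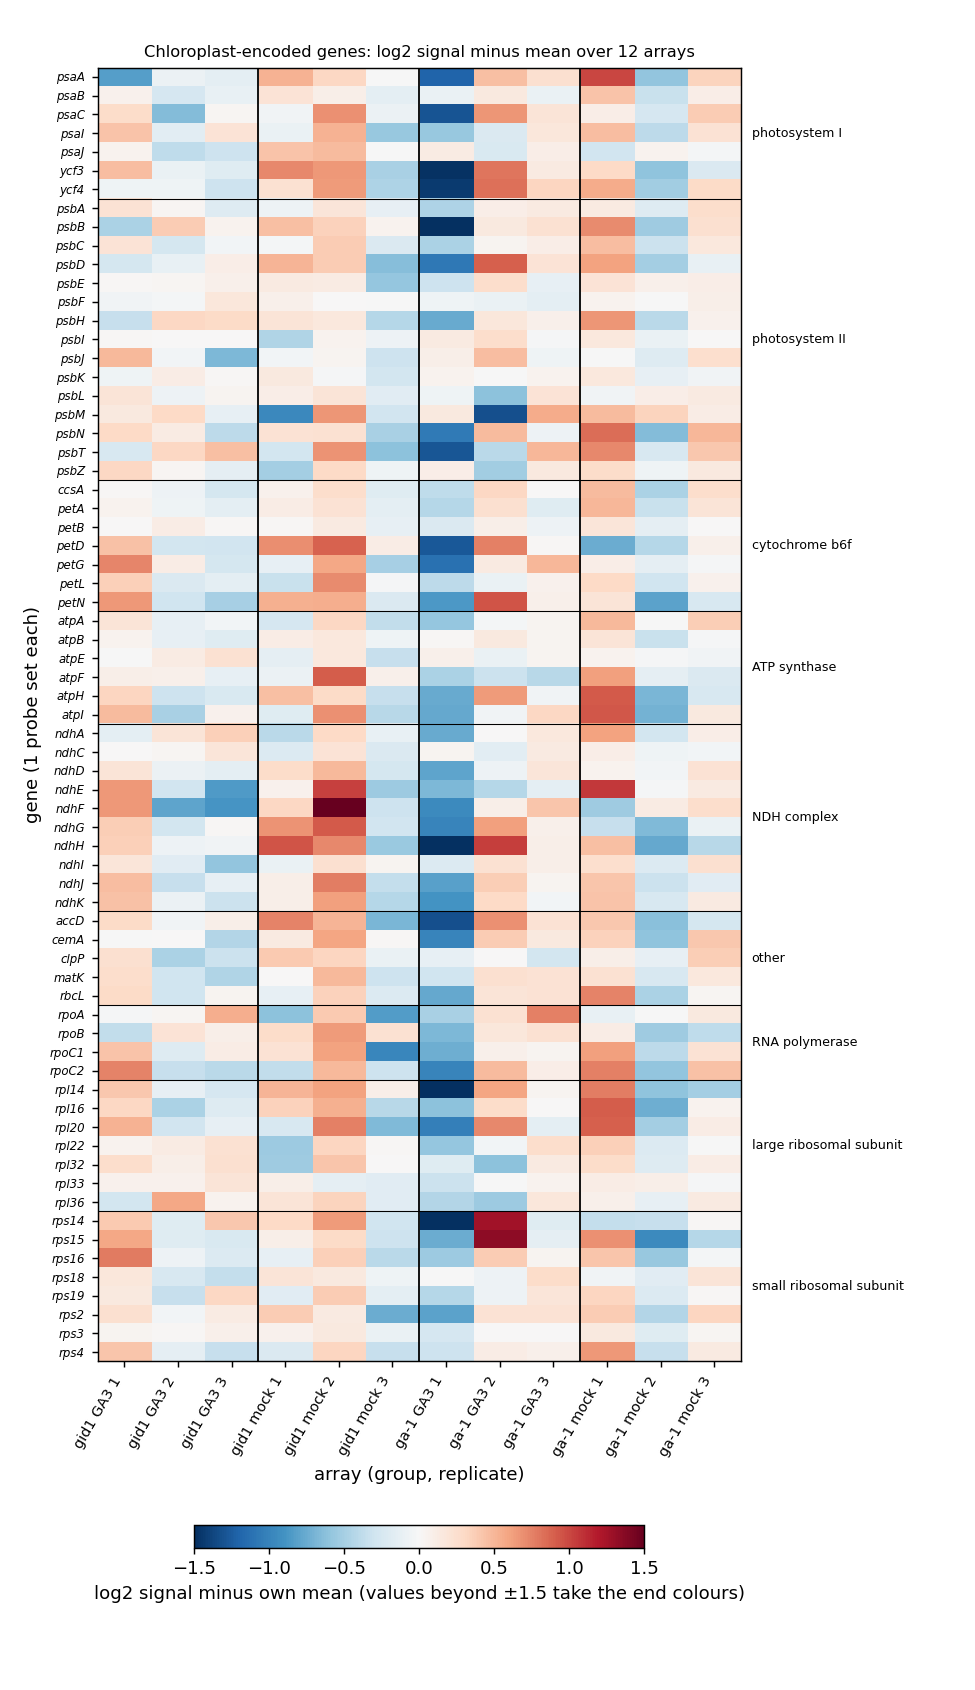
Log2 deviation of each of the 69 members from its own mean over the 12 arrays, members in rows by function, arrays in columns from gid1 with GA3 at the left to mock-treated ga-1 at the right; the colour scale is in log2 units. The column of ga-1 GA3 replicate 1 is low across all functions, and the columns of mock gid1 replicate 2 and mock ga-1 replicate 1 are high.

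The low array was low in every function. On ga-1 GA3 replicate 1 the mean deviation was lowest for photosystem I, -0.85, and NDH, -0.77, and least low for the ATP synthase, -0.41, and photosystem II, -0.44. On mock gid1 replicate 2 it ran from 0.25 for photosystem II to 0.69 for NDH. Some array controls differed on the low array too, and others did not. The 5S ribosomal RNA control read 68.5 on ga-1 GA3 replicate 1, against 139.5 to 281.1 on the others. The 25S control read 8114.5 on it and was lowest on mock gid1 replicate 1, at 6087. On ga-1 GA3 replicate 1 the log2 ratio of 3' to 5' signal was the highest of all arrays for ubiquitin, at 1.21. The ratios for actin (2.38) and GAPDH (0.03) were not extreme on it. The mean deviation of 23 probe sets that carry mitochondrial gene symbols was 0.26, 0.06 and -0.35 in gid1 with GA3, 0.22, 0.23 and -0.33 in mock-treated gid1, -0.41, 0.09 and -0.03 in ga-1 with GA3 and 0.22, -0.04 and 0.08 in mock-treated ga-1. Only 12 of the 23 passed the filter on low values. Over those 12 it was 0.24, -0.11 and -0.18 in gid1 with GA3, 0.03, 0.09 and -0.13 in mock-treated gid1, -0.45, 0.30 and -0.03 in ga-1 with GA3 and 0.24, -0.15 and 0.14 in mock-treated ga-1. The plastid and mitochondrial probe sets thus shared their lowest array in ga-1 with GA3, in mock-treated gid1 and in mock-treated ga-1, and not in gid1 with GA3. The 69 members made up 1.46% of the summed signal on ga-1 GA3 replicate 1 and 2.06% on mock ga-1 replicate 1, the extremes of the 12 arrays. What any of these values contributes to the members' spread was not tested.

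Photosystem II members differed widely in how steady they were. psbA (ArthCp002) encodes the D1 protein of the reaction centre. Its signals were 2501, 2193 and 1879.7 in gid1 with GA3, 2043, 2433 and 1979.7 in mock-treated gid1, 1556, 2315 and 2365 in ga-1 with GA3 and 2366, 1879 and 2584 in mock-treated ga-1. All 4 groups overlap, and the highest value is 1.66 times the lowest. psbD (ArthCp017), for the D2 protein, read 500.2, 554 and 643 in gid1 with GA3, 854, 783 and 387 in mock-treated gid1, 286, 1121 and 691 in ga-1 with GA3 and 916, 422 and 555 in mock-treated ga-1. Here both extremes fall within ga-1 with GA3, on replicates 1 and 2. For psbB (ArthCp049), which encodes the inner antenna protein CP47 and had the widest span over the 12 arrays of the 15, the values were 562, 1014 and 811 in gid1 with GA3, 1069, 989.5 and 808 in mock-treated gid1, 261, 866 and 913 in ga-1 with GA3 and 1271, 538 and 922 in mock-treated ga-1. It spans 4.87-fold, from ga-1 GA3 replicate 1 up to mock ga-1 replicate 1. The small subunit gene psbT (ArthCp050), which lies in the same transcription unit as psbB, read 407, 595 and 658 in gid1 with GA3, 396, 765 and 313 in mock-treated gid1, 198, 362 and 675 in ga-1 with GA3 and 792, 406 and 633 in mock-treated ga-1. It has the same lowest and highest array as psbB.

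psbF (ArthCp038), the beta subunit of cytochrome b559, read 8048, 8148 and 9410.3 in gid1 with GA3, 8821, 8352 and 8333 in mock-treated gid1, 8006, 7812 and 7517 in ga-1 with GA3 and 8659.6, 8306 and 8879 in mock-treated ga-1. This was the steadiest of all 69 members, with a within-group SD of 0.075 on the log2 scale and a highest value 1.25 times the lowest, and its ga-1 arrays with GA3 all lay below the mock-treated ones. psbE (ArthCp039), the alpha subunit of the same cytochrome, read 6367, 6432 and 6622 in gid1 with GA3, 6886, 6829 and 4223 in mock-treated gid1, 5054, 7582 and 5773 in ga-1 with GA3 and 7276, 6614 and 6716 in mock-treated ga-1. Mock gid1 replicate 3 was the lowest array and the rest lay closer together. psbI (ArthCp006), a small reaction centre subunit, had 7809, 7713 and 7759 in gid1 with GA3, 5624, 8017 and 7285 in mock-treated gid1, 8477, 9229 and 7602 in ga-1 with GA3 and 8635, 7206 and 7762 in mock-treated ga-1. Mock gid1 replicate 1 was low and the other arrays overlapped. The other 8 photosystem II members spanned between 1.35-fold (psbK) and 3.95-fold (psbM) over the 12 arrays.

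**Figure D3:**
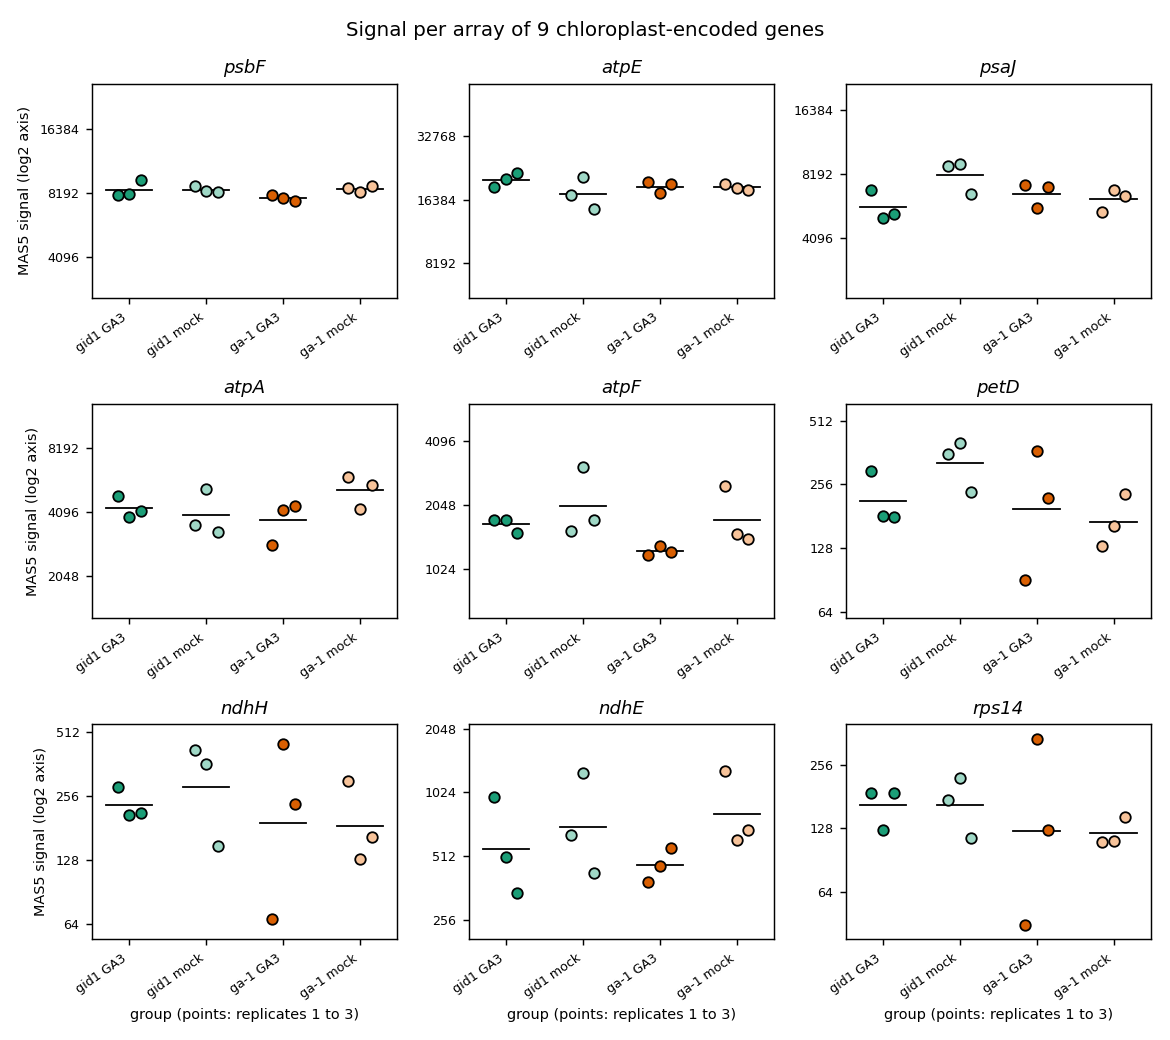
MAS5 signals of 9 members on each of the 12 arrays, on a log2 axis of equal length in every panel; points are replicates 1 to 3 and the line is the mean of their log2 values. In psbF and atpE the groups lie close together, the atpF points of ga-1 with GA3 (1186 to 1314) sit below the other groups, and in petD, ndhH and rps14 ga-1 with GA3 alone spans most of the panel.

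In photosystem I, the reaction centre genes differed in brightness and in span. psaA (ArthCp022), which encodes one of the large subunits that bind the reaction centre chlorophylls, read 214, 356 and 343 in gid1 with GA3, 545, 470.4 and 376 in mock-treated gid1, 165, 521 and 448 in ga-1 with GA3 and 758, 252 and 479 in mock-treated ga-1. All gid1 arrays with GA3 lay below the mock-treated gid1 arrays. psaB (ArthCp021), its partner subunit and neighbour in the same transcription unit, read 14858, 11903 and 13182 in gid1 with GA3, 16318, 15082 and 12785 in mock-treated gid1, 13268, 15750.0 and 13234 in ga-1 with GA3 and 19095, 11283 and 15232 in mock-treated ga-1. Its highest value is 1.69 times its lowest, against 4.59 times for psaA, and both of its extremes are mock ga-1 arrays. psaJ (ArthCp042), a small subunit, had 6869.9, 5076 and 5326 in gid1 with GA3, 8894, 9154 and 6590.2 in mock-treated gid1, 7223, 5645 and 7075 in ga-1 with GA3 and 5423, 6852 and 6471 in mock-treated ga-1. Mock-treated gid1 was the group with the higher values, but its replicate 3 lay within the range of gid1 with GA3. ycf3 (ArthCp023), an assembly factor for photosystem I, had 1208, 818 and 773 in gid1 with GA3, 1449, 1372 and 628 in mock-treated gid1, 314, 1532 and 963 in ga-1 with GA3 and 1083, 576 and 755 in mock-treated ga-1. Its extremes are replicates 1 and 2 of ga-1 with GA3. The remaining 3 (psaC, psaI and ycf4) spanned from 2.12-fold to 4.77-fold.

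The cytochrome b6f complex passes electrons between the photosystems. petB (ArthCp053), encoding cytochrome b6, read 12058, 13013 and 12170.2 in gid1 with GA3, 12223, 13175 and 11028 in mock-treated gid1, 10361, 12827 and 11379.9 in ga-1 with GA3 and 13711, 10969 and 12062 in mock-treated ga-1. It was the steadiest gene of this group, with a span of 1.32-fold. petD (ArthCp054), encoding subunit IV and transcribed in the same unit, read 297, 181 and 180.0 in gid1 with GA3, 356, 403 and 237 in mock-treated gid1, 91.0, 368 and 222 in ga-1 with GA3 and 131, 163 and 231 in mock-treated ga-1. Its mock-treated gid1 arrays all exceeded the mock-treated ga-1 arrays, while ga-1 with GA3 alone spanned nearly the whole range. petN (ArthCp015), a small subunit, had 774, 401 and 349 in gid1 with GA3, 716, 723 and 424 in mock-treated gid1, 271, 955 and 520.1 in ga-1 with GA3 and 565, 283 and 418 in mock-treated ga-1. The extremes were again replicates 1 and 2 of ga-1 with GA3. The other members, petA, petG, petL and the cytochrome maturation factor ccsA, spanned from 1.91-fold to 3.60-fold.

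ATP synthase genes fell into a bright, steady pair and a dimmer, more variable set. atpB (ArthCp029), the catalytic beta subunit, read 21756, 19203 and 18486 in gid1 with GA3, 22553, 23326 and 19987 in mock-treated gid1, 21146, 23219 and 21433 in ga-1 with GA3 and 23828, 16547 and 20581 in mock-treated ga-1. Both extremes are mock ga-1 arrays and the span is 1.44-fold. atpE (ArthCp028), the epsilon subunit from the same unit, had 18759, 20493 and 21968 in gid1 with GA3, 17195, 20988 and 14772 in mock-treated gid1, 19762, 17539 and 19318 in ga-1 with GA3 and 19447, 18580.2 and 18096 in mock-treated ga-1. Its span is 1.49-fold and the groups overlap. atpA (ArthCp007), the alpha subunit, read 4888, 3905 and 4147 in gid1 with GA3, 3573, 5278 and 3299 in mock-treated gid1, 2861, 4181 and 4396 in ga-1 with GA3 and 5981, 4252 and 5499 in mock-treated ga-1. Of the ga-1 arrays, those with GA3 were mostly below the mock-treated ones, with an overlap between GA3 replicate 3 and mock replicate 2. atpF (ArthCp008), a subunit of the peripheral stalk, had 1740.4, 1734 and 1514 in gid1 with GA3, 1552, 3088 and 1732 in mock-treated gid1, 1186, 1314 and 1236 in ga-1 with GA3 and 2521, 1495 and 1414 in mock-treated ga-1. All ga-1 arrays with GA3 lay below the mock-treated ga-1 arrays and below the gid1 arrays with GA3. atpI (ArthCp010), the membrane subunit a, had 357, 182 and 269 in gid1 with GA3, 226, 410.4 and 192 in mock-treated gid1, 149.9, 247 and 318 in ga-1 with GA3 and 489, 157 and 284 in mock-treated ga-1, the widest spread of the 6 genes. The remaining gene, atpH for the proton-translocating ring, spanned 3.18-fold.

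The NDH complex carries electrons around photosystem I. ndhF (ArthCp071), a membrane subunit, was dim in every group. Its signals were 145, 53.1 and 50.1 in gid1 with GA3, 114, 285 and 74.1 in mock-treated gid1, 47.7, 98.4 and 123 in ga-1 with GA3 and 63.6, 100.2 and 111 in mock-treated ga-1. Mock gid1 replicate 2 stood above every other array. ndhE (ArthCp076), another membrane subunit, read 973, 506 and 345 in gid1 with GA3, 648, 1259.5 and 426 in mock-treated gid1, 389, 461 and 562 in ga-1 with GA3 and 1296, 611 and 682 in mock-treated ga-1. All ga-1 arrays with GA3 lay below the mock-treated ones, while the gid1 arrays reached from below the ga-1 values with GA3 to near the highest mock value. ndhG (ArthCp077), also a membrane subunit, had 787, 506 and 621 in gid1 with GA3, 973, 1154 and 500.2 in mock-treated gid1, 308, 936 and 643 in ga-1 with GA3 and 479.6, 388 and 569 in mock-treated ga-1. The values of mock-treated gid1 were mostly above those of mock-treated ga-1, with an overlap at gid1 replicate 3. ndhH (ArthCp080), a subunit of the stromal arm, read 280.4, 208 and 212 in gid1 with GA3, 421, 362 and 149 in mock-treated gid1, 66.9, 449.8 and 234 in ga-1 with GA3 and 299.5, 129.5 and 164 in mock-treated ga-1. This was the least steady of all members within groups, with an SD of 0.87 on the log2 scale. ndhI (ArthCp078), an iron-sulphur subunit, had 12711, 10020.3 and 7482 in gid1 with GA3, 10491, 13308 and 11569.9 in mock-treated gid1, 9739, 13132 and 11914 in ga-1 with GA3 and 13442, 9797 and 13274 in mock-treated ga-1. It spans 1.80-fold, and replicate 3 of gid1 with GA3 is its lowest array. ndhC (ArthCp027), a further membrane subunit, read 6761, 6854 and 7639 in gid1 with GA3, 5825, 7736 and 5797 in mock-treated gid1, 6948, 6054 and 7371 in ga-1 with GA3 and 7217, 6435 and 6564 in mock-treated ga-1. It was the steadiest NDH gene, at 1.33-fold. The other 4 (ndhA, ndhD, ndhJ and ndhK) spanned from 2.42-fold to 2.99-fold.

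Among the genes for metabolism and protein turnover, rbcL (ArthCp030), the large subunit of Rubisco, had 1979.8, 1321 and 1670.2 in gid1 with GA3, 1489, 2057 and 1405 in mock-treated gid1, 955, 1855 and 1878 in ga-1 with GA3 and 2722, 1164 and 1659 in mock-treated ga-1. It is lowest on ga-1 GA3 replicate 1 and highest on mock ga-1 replicate 1. accD (ArthCp031), a subunit of the plastid acetyl-CoA carboxylase that starts fatty acid synthesis, read 848, 671 and 741 in gid1 with GA3, 1168, 992 and 433 in mock-treated gid1, 278, 1118 and 806 in ga-1 with GA3 and 918, 449.7 and 579 in mock-treated ga-1. The groups overlap over a 4.2-fold span. clpP (ArthCp048), a proteolytic subunit of the Clp protease, had 8884, 5447 and 6052 in gid1 with GA3, 9951, 9448 and 7028 in mock-treated gid1, 6940.4, 7592 and 6232 in ga-1 with GA3 and 8014, 6916 and 9748 in mock-treated ga-1. The mock-treated gid1 values were mostly higher than those of gid1 with GA3, whose replicate 1 lay among them. matK (ArthCp003), an intron maturase, had 6433, 4372 and 3918 in gid1 with GA3, 5406, 7544 and 4316 in mock-treated gid1, 4359, 6316 and 6241 in ga-1 with GA3 and 6273, 4556 and 6009 in mock-treated ga-1. Its groups overlap over a 1.93-fold span, and cemA, an envelope membrane protein gene, spans 3.00-fold.

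The RNA polymerase genes showed no common group order. rpoA (ArthCp055), the alpha subunit, read 4047, 4175 and 5958 in gid1 with GA3, 2664, 5345 and 2284 in mock-treated gid1, 2906, 4778 and 6877 in ga-1 with GA3 and 3769, 4068 and 4515 in mock-treated ga-1. Its lowest value is mock gid1 replicate 3 and its highest is ga-1 GA3 replicate 3. rpoB (ArthCp014), the beta subunit, had 93.0, 139 and 128 in gid1 with GA3, 145, 188 and 141 in mock-treated gid1, 75.7, 136 and 141 in ga-1 with GA3 and 129.5, 83.1 and 92.3 in mock-treated ga-1. The mock-treated gid1 arrays lay above all arrays of gid1 with GA3 and all arrays of mock-treated ga-1, and they overlap with ga-1 with GA3 only at its replicate 3. rpoC2 (ArthCp012), a further core subunit, had 649, 306 and 293 in gid1 with GA3, 301, 544 and 313 in mock-treated gid1, 195, 540.1 and 414 in ga-1 with GA3 and 654, 258 and 524 in mock-treated ga-1. The groups overlap over 3.35-fold, and rpoC1 spans 3.03-fold.

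Ribosomal protein genes held the widest span of all. rps14 (ArthCp020), of the small subunit, read 187, 126 and 188 in gid1 with GA3, 174, 222 and 115 in mock-treated gid1, 45.0, 339.8 and 126 in ga-1 with GA3 and 111, 112 and 144 in mock-treated ga-1. The highest value is 7.55 times the lowest, and both are arrays of ga-1 with GA3. rps15 (ArthCp081) had 424, 249 and 242 in gid1 with GA3, 299.7, 345 and 229 in mock-treated gid1, 169, 720.0 and 258 in ga-1 with GA3 and 456, 146 and 210.2 in mock-treated ga-1. Its replicate 2 of ga-1 with GA3 stood apart from the other 11 arrays. rps3 (ArthCp061), in contrast, had 5219, 5115 and 5361 in gid1 with GA3, 5294, 5617 and 4723 in mock-treated gid1, 4261, 5095 and 5089 in ga-1 with GA3 and 5593, 4468 and 5169 in mock-treated ga-1. It spans 1.32-fold, and the gid1 arrays with GA3 all lay above the ga-1 arrays with GA3. rps18 (ArthCp044) had 1469, 1103 and 1017 in gid1 with GA3, 1485, 1437 and 1241 in mock-treated gid1, 1299, 1235 and 1577 in ga-1 with GA3 and 1252, 1153 and 1486 in mock-treated ga-1. Its groups overlap, and replicate 3 of gid1 with GA3 is lowest. The other 4 small subunit genes spanned from 1.75-fold to 2.55-fold.

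For the large ribosomal subunit, rpl33 (ArthCp043) had 9814, 9812 and 10701 in gid1 with GA3, 9956, 8522 and 8335 in mock-treated gid1, 7500.3, 9357 and 9762 in ga-1 with GA3 and 10122, 9941 and 9304 in mock-treated ga-1. Every gid1 array with GA3 lay above every ga-1 array with GA3, by a narrow margin at the nearest pair. rpl32 (ArthCp072) had 2072, 1834 and 2042 in gid1 with GA3, 1196, 2313 and 1729 in mock-treated gid1, 1525, 1129.8 and 1897 in ga-1 with GA3 and 2092, 1507 and 1865 in mock-treated ga-1. Its lowest arrays are ga-1 GA3 replicate 2 and mock gid1 replicate 1. rpl36 (ArthCp057) had 3640.4, 6557 and 4568 in gid1 with GA3, 4999, 5544 and 3891 in mock-treated gid1, 3239, 3014 and 4920.1 in ga-1 with GA3 and 4638, 4045 and 4816 in mock-treated ga-1. The ga-1 arrays with GA3 reached from the lowest value of all 12 to among the higher ones. rpl14 (ArthCp059) read 1142, 798 and 725 in gid1 with GA3, 1238, 1319.6 and 918 in mock-treated gid1, 301, 1308 and 895 in ga-1 with GA3 and 1472, 572 and 609 in mock-treated ga-1. It spans 4.89-fold, with the lowest array ga-1 GA3 replicate 1 and the highest mock ga-1 replicate 1. The other 3 genes spanned from 1.91-fold (rpl22) to 3.77-fold (rpl20).

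GA3 in ga-1, the comparison that asks which transcripts respond to the hormone where it is scarce, left 49 of 69 members below 0, against 48.1% of all tested probe sets, with a median log2 difference of -0.17 for the members and 0.01 for all probe sets. Negative values outnumbered positive ones in 7 of the 9 functions, and the large ribosomal subunit had all 7 genes below 0 (from -0.31 to -0.15). No single member passed. The smallest p belonged to atpA, with a log2 difference of -0.47 (SE 0.19, 95% interval -0.86 to -0.08, unadjusted p = 0.022, adjusted p = 0.5). Next came atpF at -0.49 (SE 0.22, 95% interval -0.96 to -0.02, unadjusted p = 0.044, adjusted p = 0.63). For ndhE the difference was -0.81 (SE 0.38, 95% interval -1.60 to -0.01, unadjusted p = 0.047, adjusted p = 0.63). On the other side, atpB lay at 0.12 (SE 0.12, 95% interval -0.12 to 0.37, unadjusted p = 0.3, adjusted p = 0.88). The values of rps15, 0.39 (SE 0.44, 95% interval -0.54 to 1.31, unadjusted p = 0.39, adjusted p = 0.91), and petN, 0.34 (SE 0.38, 95% interval -0.47 to 1.14, unadjusted p = 0.39, adjusted p = 0.91), rest on wide intervals. In 3 members the ga-1 arrays did not overlap, all lower with GA3 (psbF, atpF and ndhE). Of all tested probe sets, 7.17% had such separation in that direction and 6.85% in the other, where no member did.

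That median followed 1 array on each side. Without replicate 1 of ga-1 with GA3 the median of the 69 members was 0.05 and 26 members lay below 0, and without replicate 1 of mock-treated ga-1 the median was -0.01 with 37 below 0. Leaving out both, an alternative chosen after the data were seen, gave a median of 0.18 with 15 members below 0. The 95% intervals show the precision of each difference and are not adjusted for the number of probe sets tested, so they give no limit for a call. In 50 of 69 members the 95% interval lay wholly within a 2-fold change either way, against 85.1% of all tested probe sets, and the median half-width was 0.57 for the members and 0.38 for all, on the log2 scale.

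**Figure D4:**
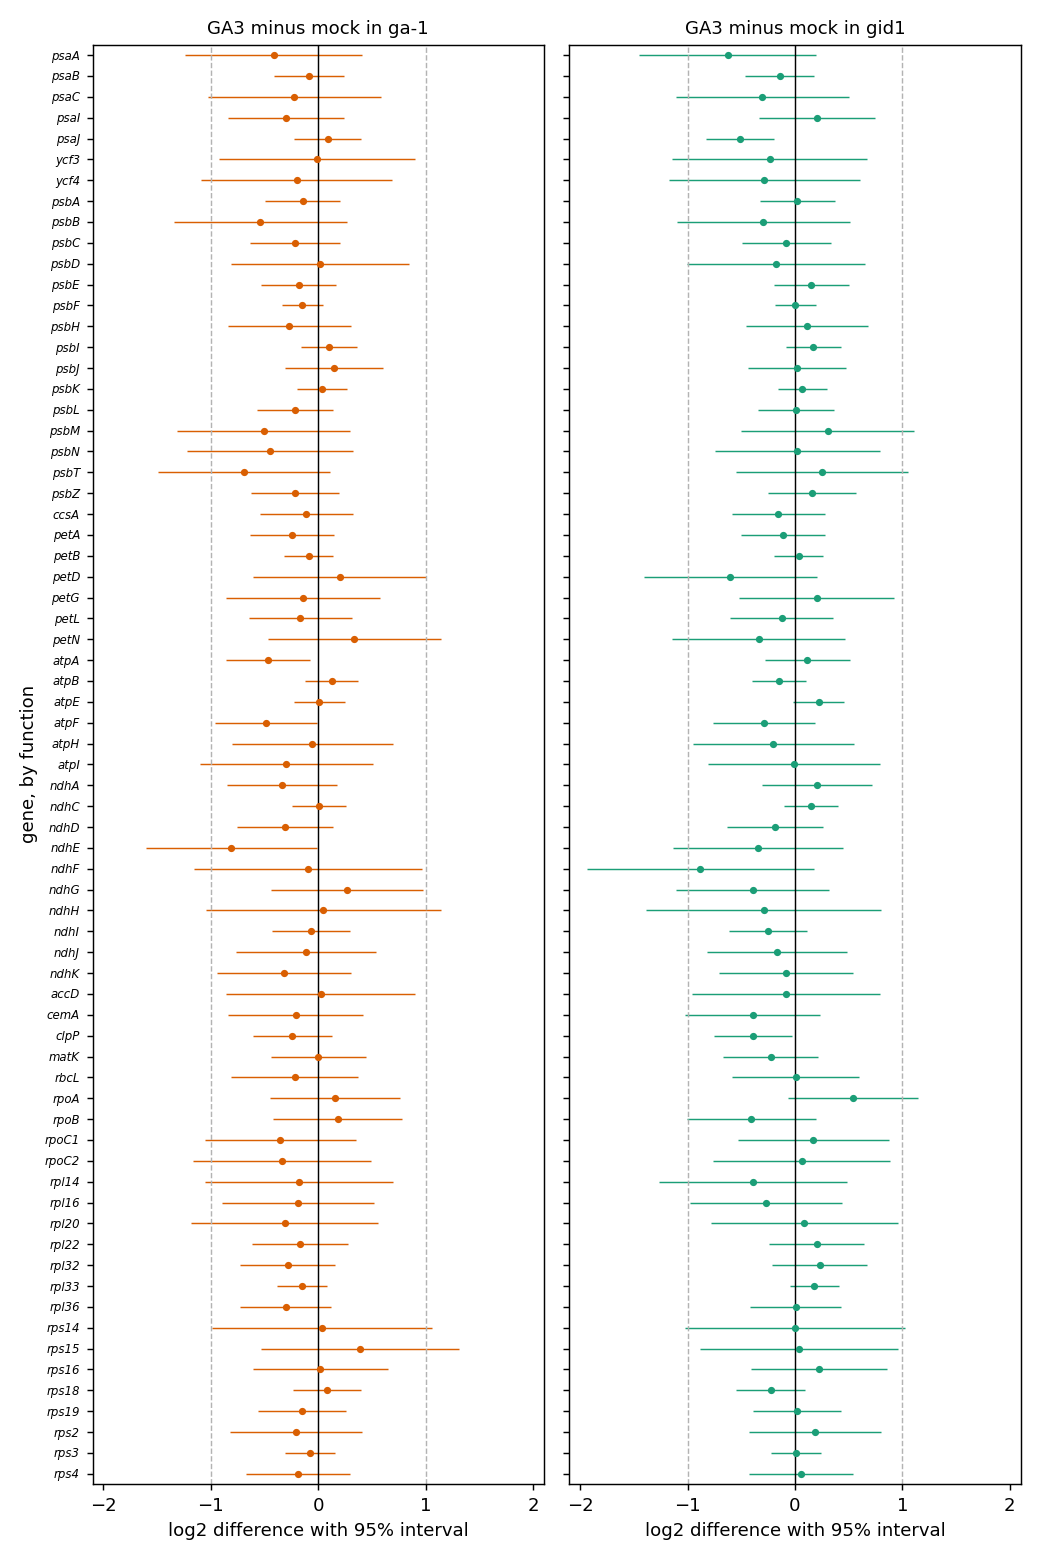
Log2 difference of each of the 69 members, by function, for GA3 minus mock in ga-1 (left) and in gid1 (right); points are estimates and bars are 95% intervals. In ga-1 49 points lie below 0 and in gid1 35 do, most bars cross 0, and none passes the adjusted threshold.

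GA3 in gid1, the labelled receptor mutant, gave 35 of 69 members below 0, against 48.7% of all, and a median of -0.0026, against 0.01 for all probe sets. Photosystem I had 6 of 7 genes below 0 (median -0.28) and NDH 8 of 10 (median -0.22). Photosystem II had 12 of 15 above 0, but its median was only 0.02. The members moved together on the arrays, so such counts are not of independent genes. The smallest p was that of psaJ, with a log2 difference of -0.51 (SE 0.15, 95% interval -0.82 to -0.20, unadjusted p = 0.0033, adjusted p = 0.94). For clpP the difference was -0.39 (SE 0.17, 95% interval -0.76 to -0.03, unadjusted p = 0.037, adjusted p = 0.94). The largest difference by size among the named genes was ndhF, at -0.88 (SE 0.50, 95% interval -1.94 to 0.18, unadjusted p = 0.097, adjusted p = 0.94). In the positive direction atpE lay at 0.22 (SE 0.11, 95% interval -0.02 to 0.46, unadjusted p = 0.066, adjusted p = 0.94). The RNA polymerase gene rpoA lay at 0.54 (SE 0.29, 95% interval -0.06 to 1.15, unadjusted p = 0.075, adjusted p = 0.94), and rpl33 at 0.18 (SE 0.11, 95% interval -0.05 to 0.41, unadjusted p = 0.11, adjusted p = 0.94). The arrays did not overlap for psaA, rpoB and cemA, all lower with GA3, against 4.37% of all probe sets in that direction, and 0 members did in the other, against 4.74%. Without mock gid1 replicate 3, 58 of 69 members lay below 0, with a median of -0.21, and without mock gid1 replicate 2 there were 27 with a median of 0.09. With the mean of the seed markers on each array as a covariate, 6 members lay below 0 and the median was 0.59. The summed seed markers did not overlap between these groups, so this fit cannot well separate the markers from the treatment. The interval lay within 2-fold for 50 members, against 86.5% of all probe sets.

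The difference of the GA3 responses, ga-1 minus gid1, asks whether the mutants responded unlike each other. It was below 0 in 41 of 69 members, against 50.4% of all, with a median of -0.13, against -0.0022 for all. Photosystem II had 13 of 15 genes below 0 (median -0.23), and photosystem I had 6 of 7 above 0, with a median of only 0.08. The smallest p was again psaJ, at 0.60 (SE 0.21, 95% interval 0.15 to 1.04, unadjusted p = 0.011, adjusted p = 0.54). It was followed by atpA at -0.59 (SE 0.26, 95% interval -1.14 to -0.03, unadjusted p = 0.04, adjusted p = 0.72). The ribosomal gene rpl33 had -0.33 (SE 0.15, 95% interval -0.66 to -0.01, unadjusted p = 0.046, adjusted p = 0.76). The value for psbT was -0.94 (SE 0.53, 95% interval -2.07 to 0.19, unadjusted p = 0.096, adjusted p = 0.8). On the positive side petD lay at 0.80 (SE 0.54, 95% interval -0.34 to 1.94, unadjusted p = 0.16, adjusted p = 0.85) and atpB at 0.27 (SE 0.17, 95% interval -0.08 to 0.62, unadjusted p = 0.12, adjusted p = 0.83). Without ga-1 GA3 replicate 1 the median was 0.05 with 27 members below 0, and without mock ga-1 replicate 1 it was 0.04 with 32 below 0. With the seed-marker covariate 64 lay below 0 and the median was -0.97. This comparison carries the spread of all 4 groups: the median half-width of the members was 0.81, against 0.54 for all probe sets, and only 30 of 69 intervals lay within 2-fold, against 68.1% of all.

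Between the mock-treated mutants, gid1 minus ga-1, 37 of 69 members lay below 0, against 52.2% of all, with a median of -0.02, against -0.01 for all. Photosystem II had 13 of 15 genes below 0, with a median of -0.11. The difference was 0.39 (SE 0.15, 95% interval 0.07 to 0.70, unadjusted p = 0.019, adjusted p = 0.99) for psaJ, the gene with the smallest p. It was 0.93 (SE 0.38, 95% interval 0.12 to 1.74, unadjusted p = 0.027, adjusted p = 0.99) for petD and 0.80 (SE 0.34, 95% interval 0.09 to 1.51, unadjusted p = 0.029, adjusted p = 0.99) for ndhG. For rpoB it was 0.65 (SE 0.28, 95% interval 0.05 to 1.25, unadjusted p = 0.035, adjusted p = 0.99). Below 0 lay atpA, at -0.39 (SE 0.19, 95% interval -0.78 to 0.00, unadjusted p = 0.051, adjusted p = 0.99), psbI, at -0.19 (SE 0.12, 95% interval -0.44 to 0.07, unadjusted p = 0.15, adjusted p = 0.99), and psbE, at -0.23 (SE 0.17, 95% interval -0.58 to 0.12, unadjusted p = 0.17, adjusted p = 0.99). The arrays of the mutants did not overlap for petD and rpoB, both higher in gid1, against 5.01% of all probe sets in that direction, and 0 were lower in gid1 without overlap, against 6.03%. The count below 0 was 15 without mock ga-1 replicate 1 and 19 without mock gid1 replicate 3. Without mock ga-1 replicate 2 it was 53, and without mock gid1 replicate 2 it was 50. With the seed-marker covariate it was 56. Intervals lay within 2-fold for 52 of 69 members, against 86.9% of all.

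With GA3 in both mutants, gid1 minus ga-1, 19 of 69 members lay below 0, against 52% of all, with a median of 0.13, against -0.01 for all. All 4 RNA polymerase genes (median 0.10) and 6 of 7 large ribosomal genes (median 0.26) were above 0. Photosystem I was the exception with 4 of 7 below 0, at a median of -0.05. The smallest p was that of rpl32, at 0.42 (SE 0.21, 95% interval -0.03 to 0.86, unadjusted p = 0.064, adjusted p = 0.51). Then came rpl36 at 0.39 (SE 0.20, 95% interval -0.03 to 0.82, unadjusted p = 0.067, adjusted p = 0.52) and atpF at 0.42 (SE 0.22, 95% interval -0.06 to 0.89, unadjusted p = 0.082, adjusted p = 0.56). On the negative side psaJ had -0.21 (SE 0.15, 95% interval -0.53 to 0.10, unadjusted p = 0.17, adjusted p = 0.68). For rps18 the value was -0.21 (SE 0.15, 95% interval -0.53 to 0.11, unadjusted p = 0.19, adjusted p = 0.7), and for ndhI it was -0.23 (SE 0.17, 95% interval -0.59 to 0.14, unadjusted p = 0.21, adjusted p = 0.71). In 4 members (atpF, rpl33, psbF and rps3) every gid1 array exceeded every ga-1 array, against 6.98% of all probe sets in that direction, and in 0 members were they all lower, against 6.72%. Without ga-1 GA3 replicate 1 the median was -0.12 and 48 members lay below 0, and without gid1 GA3 replicate 1 the count was 32. With the seed-marker covariate 3 lay below 0 and the median was 0.72. Intervals lay within 2-fold for 54 of 69, against 83.5% of all. These comparisons share groups of arrays, so their values are not independent of each other.

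Genes of 1 transcription unit differed in their spread in some units and not in others. The units are textbook ones, listed with earlier results of these data known. In the psbB-psbT-psbH-petB-petD unit, within-group SDs ran from 0.13 for petB to 0.65 for psbB, on the log2 scale. Their mean log2 signals were 13.56 and 9.61. In psaA-psaB-rps14 the SDs ran from 0.24 for psaB to 0.79 for rps14, with mean log2 signals of 13.79 and 7.15. The atpB-atpE pair was steady in both genes, at 0.16 and 0.15, and both were bright, at 14.35 and 14.2. The steadier genes named here were thus the brighter ones, and the part of brightness in these contrasts was not tested. In the rps2-atpI-atpH-atpF-atpA unit all 5 genes lay below 0 after GA3 in ga-1, from -0.49 to -0.05, with 0 called, and in gid1 3 of the 5 did, from -0.29 to 0.18. The unit of ndhH, ndhA, ndhI, ndhG, ndhE, psaC and ndhD had 6 of 7 below 0 after GA3 in gid1 and 5 of 7 in ga-1. Genes commonly given as read by the nuclear-encoded polymerase (accD, rpoB, rpoC1 and rpoC2 among the members) had medians of -0.16 in ga-1 and -0.01 in gid1, with 2 of 4 below 0 in each.

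**Figure D5:**
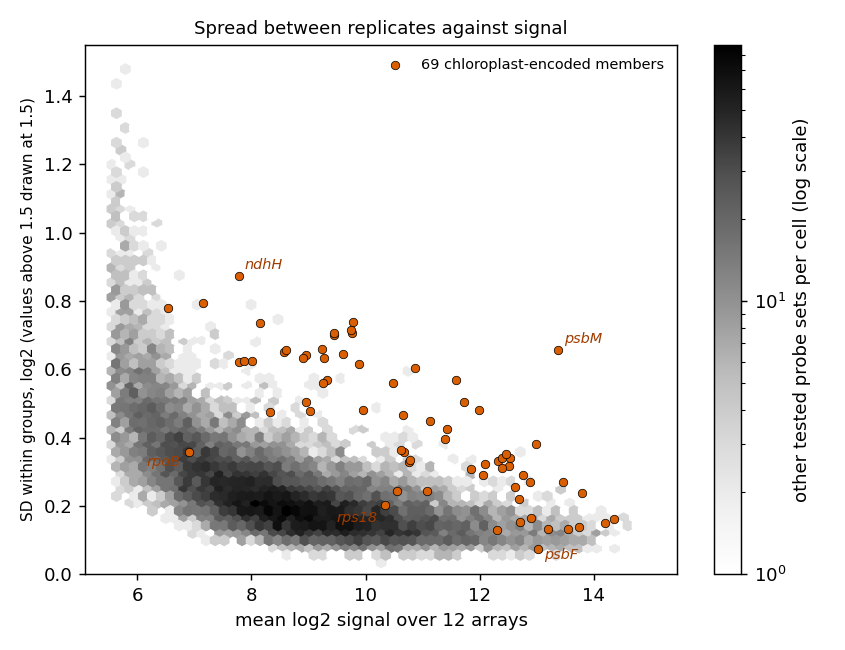
Within-group SD of log2 values (vertical axis, log2 units) against mean log2 signal (horizontal axis) for the tested probe sets and the 69 members. Members lie mostly above the bulk of probe sets of the same brightness: 67 of 69 exceed limma's fitted trend (not drawn), against 48.7% of all tested. Their median SD is 0.42, against 0.22 for all tested at any brightness, and psbF at 0.075 and ndhH at 0.87 are the extremes among members.

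The replicate spread of the members as a whole was wide. The median within-group SD was 0.42 for the 69 members and 0.22 for the tested probe sets, on the log2 scale, and 58 of 69 lay above the median of the tested probe sets. Set against limma's fitted trend of spread on brightness, 67 of 69 members lay above it, as did 48.7% of all tested probe sets. Only psbF and rps3 lay below. Brighter members were steadier: the correlation of SD with mean log2 signal was -0.78 over the 69 members and -0.60 over all tested probe sets, given as a description, since the members share arrays and transcripts. An exception is psbM, a small photosystem II subunit gene whose signals reached from 4281 to 16892. Over the 12 arrays 8 members spanned less than 1.5-fold, and 44 spanned at least 2-fold.

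The listed nuclear-encoded photosynthesis genes with a named probe set were steady on the same arrays, and most were bright. The list of 57 nuclear photosystem and light-harvesting genes includes Rubisco activase (RCA), which is not a subunit of these complexes. Of the 57, 10 had a named probe set, RCA among them, and none was called in any comparison. Their within-group SDs ran from 0.067 to 0.19 on the log2 scale, with a median of 0.14, and their spans from 1.19-fold to 1.65-fold. All but LHCB4.3 had a mean log2 signal of 13.4 or more. The 7 plastid members that were as bright (atpB, atpE, ndhI, petB, psaB, psbK and psbM) had a median SD of 0.16, from 0.13 to 0.66, against 0.15, from 0.067 to 0.19, for those 9 nuclear genes. On the array that was lowest for the plastid genes, ga-1 GA3 replicate 1, the mean deviation of these nuclear genes was 0.17. PSAN, a nuclear photosystem I subunit, read 10802, 11572 and 10608 in gid1 with GA3, 12002, 12595 and 11419 in mock-treated gid1, 15058, 10719.6 and 11221 in ga-1 with GA3 and 13675, 12666 and 12296 in mock-treated ga-1. Its highest value was on that same array, as were those of LHCB4.1 (23860) and PSBW (13544). The rest of the 10 had theirs on other arrays, and LHCB4.3 read 1945 there, within its range of 1794.5 to 2382. After GA3 in ga-1, the smallest p among the 10 belonged to PSBY (log2 difference 0.14, adjusted p = 0.83), a photosystem II subunit, and ATPC1 (0.11, adjusted p = 0.84), the ATP synthase gamma subunit. After GA3 in gid1 they were PSBY (-0.26) and the antenna gene LHCB4.2 (-0.26), both with an adjusted p of 0.94. The same 2 genes led in the difference of responses, at 0.40 (adjusted p = 0.57) and 0.37 (adjusted p = 0.72). In gid1 against ga-1 with GA3 they lay at -0.25 (adjusted p = 0.38) and -0.32 (adjusted p = 0.28), and in mock ATPC1 (0.12) and PSBY (0.15) had adjusted p = 0.99. Of 14 listed genes for plastid RNA processing only PPR10 had a named probe set. After GA3 its log2 difference was -0.17 (limma adjusted p = 0.89) in ga-1 and 0.33 (adjusted p = 0.94) in gid1. Of 23 for plastid transcription only RPOTMP had one, and it fell under the low-value filter. Listed genes without a named probe set were not looked for among the probe sets with several symbols or none.

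Markers of tissue make-up were checked beside these results. Of 18 green tissue markers 2 had a named probe set: LHCB4.1 was at 19154 to 23860 and RCA at 20341 to 28560 over all 12 arrays. Neither was called in any comparison. Of 9 root markers 3 had a named probe set and none of these was called. Of 16 markers of seeds and early seedlings 5 had a named probe set. Their summed signal was 1806 to 4249 in gid1 with GA3, 238 to 554 in mock-treated gid1, 477 to 645 in ga-1 with GA3 and 394 to 2681 in mock-treated ga-1. Some were called: in gid1 against ga-1 with GA3 the log2 difference was 2.95 for AT3G02480 (adjusted p = 0.012) and 4.23 for ICL (adjusted p = 0.045), and in the difference of the GA3 responses it was -4.77 for AT3G02480 (adjusted p = 0.018). In these comparisons, in the same order, PAP85 had 1.61 and -2.83 and was not called. AT4G36700 went the other way, at -0.17 and 0.23, and was not called. LEA18 fell under the low-value filter. The seed markers AT3G02480 and LEA18 were not at 0 in any group, although LEA18 was at or under 9.8 in mock-treated gid1 and in ga-1 with GA3. Within gid1 with GA3, mock-treated gid1 and mock-treated ga-1, the array with the smallest seed marker sum had the highest mean of the plastid members, and in ga-1 with GA3 the array with the smallest sum had the lowest mean. The part of these markers in the members' values was examined only through the covariate above.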

How the data were processed

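Biotin-labelled cRNA from 12 seedling samples was hybridised to Affymetrix ATH1 arrays. The authors deposited intensities, which are linear MAS5 signals (version not stated) according to their processing notes. Without the lowest and highest 2% of values the mean was 500.0 on every array, so the arrays had been scaled to a common level. Detection calls and scanner files were not used here. Groups and replicate numbers follow the titles, because a description field names GA3 for mock samples too. No batch is named in the labels.

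Signals under 1 were set to 1 before log2 was taken. The 64 array controls and probe sets whose mean log2 fell under the 30th percentile (5.55) were dropped, which kept 15922. Group means of the 4 groups were fitted over 12 arrays with limma 3.58.1 under R 4.3.3 (lmFit, eBayes with trend). P-values were adjusted by Benjamini-Hochberg and called at 0.05. The fit was also run on simulated data with noise drawn independently for each probe set, which does not copy the joint movement of the members. Differences are on the log2 scale and intervals are 95%. The number of arrays limits the precision. Names came from the platform annotation and the TAIR10.1 gene table: 13513 probe sets had 1 symbol, 503 several and 8794 none.

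Members and lists were chosen with earlier results of these data known. Values on all arrays are given for 40 members: the 3 with the smallest p in each direction of each comparison, the genes with the smallest and largest spread over the 12 arrays in each function, and psbA, psbD, psaA, rbcL, atpB, petB, ndhF, rpoB, clpP, accD and matK. The rpoB difference in mock, psbM, the nuclear gene PSAN and the members without overlap were picked after their values were seen. GA1 itself was not analysed here. Alternatives covered scaling, filters, a pseudocount of 32, the variance prior, the groups in the fit, array weights, a replicate block, a seed-marker covariate and each array left out.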

Additional observations from a re-analysis of the deposited data

How the results depend on the processing

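The count of called members was recomputed under 25 alternatives, 124 counts in all, and was 0 each time; the lowest adjusted p of a difference named in a comparison was 0.15 over all of them. The replicate block also gave 0 calls in each comparison. Samples with the same number correlated between -0.13 and 0.11 and those with other numbers between -0.18 and 0.20. These ranges overlap, so no pairing by number was seen, but its absence is not shown. Of 743 recomputed differences of members named in a comparison, 735 kept their direction. With the mean log2 value of the seed markers as a covariate, 5 turned: the log2 difference of atpB (-0.0197) and of rps15 (-0.0785) in ga-1, of clpP in gid1 (0.0777), of atpB in the difference of responses (-0.39), and of ndhI in gid1 against ga-1 with GA3 (0.23). That covariate moved the members' median to 0.59 after GA3 in gid1, to -0.97 in the difference of responses and to 0.72 for gid1 against ga-1 with GA3. The summed seed markers were higher on all gid1 arrays with GA3 than on all mock gid1 arrays and all ga-1 arrays with GA3. In these comparisons the covariate therefore cannot be well separated from the groups, and no conclusion is drawn from the moved medians. With arrays left out, the log2 difference in ga-1 ran from -0.0151 (without ga-1 mock replicate 2) to 0.27 for atpB, and, with the low end without ga-1 GA3 replicate 2, from -0.21 to 1.298 for rps15 and from -0.11 to 1.03 for petN; the high ends leave out replicate 1 of both ga-1 groups. Centring the members on their mean for each array, added after seeing the data, sets their average difference to 0 by construction, so its medians are not given. The 50th percentile filter kept 66 of 69 members. Why these values moved was not tested.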

Other observations

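The 8 plastid probe sets that pair with more than 1 gene ID, because most of these genes lie in the inverted repeat and occur in a pair of copies, moved over the arrays much as the 69 members did. Their mean log2 deviation was 0.10, -0.28 and 0.03 in gid1 with GA3, 0.29, 0.47 and -0.26 in mock-treated gid1, -0.79, 0.36 and 0.13 in ga-1 with GA3 and 0.34, -0.39 and 0.0067 in mock-treated ga-1. Again ga-1 GA3 replicate 1 was lowest and mock gid1 replicate 2 highest. The steadiest was rpl2, a large ribosomal subunit gene, which ran from 16675 to 21463 over the 12 arrays, a span of 1.29-fold. The gene ycf2 ran from 61.5 to 344 and ndhB from 75.1 to 342. The 2 probe sets for rps12, whose transcript is joined from separate precursors by trans-splicing, reached 244 and 2674, and each had its lowest value on ga-1 GA3 replicate 1 and its highest on mock ga-1 replicate 1. The probe set of rps7, the small subunit gene beside rps12, had the same lowest and highest array, at 2999 and 7049.5. For rpl23, in contrast, ga-1 GA3 replicates 1 and 2 were alike, at 6376 and 6287.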
